A study of Homo sapiens with 4 samples.

Results

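The HOX genes form 4 clusters of homeobox genes, HOXA, HOXB, HOXC and HOXD, and each gene carries the number of its position within its cluster. The members described here are all probes on the array with 1 gene symbol of that form, antisense genes left out. This gave 36 probes for 29 genes of the 18852 named genes: 10 HOXB genes, 9 HOXC genes, 9 HOXD genes and, of the HOXA cluster, HOXA2. The other HOXA genes were not analysed here. The members were chosen by name and not by their values, though earlier results of these data were known at that time.

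RNA came from H520 and LK2, established human lines of lung squamous cell carcinoma, and was measured on the HumanHT-12 v3 BeadChip of Illumina, where probes sit on beads and 1 dye is read. Each line received scrambled control siRNAs or a pool of siRNAs against SOX2, and RNA was taken at 48 h. These are 4 groups of 1 array each: H520 control, H520 SOX2 siRNA, LK2 control and LK2 SOX2 siRNA. Each line is a single cell line, so a difference between the lines is not one between tumour classes. SOX2 itself stood at 63.5% of control in H520 and at 23.1% in LK2, so depletion on these arrays was smaller in H520, a difference that was not tested.

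HOX proteins are transcription factors that bind DNA through a homeodomain, often together with PBX and MEIS partners, and give cells their place along the body axis. Within a cluster, low-numbered genes are expressed nearer the head and high-numbered genes nearer the tail, an order known as collinearity. Polycomb complexes keep silent HOX genes closed, complexes of the MLL type keep active ones open, and retinoic acid and CDX factors set their limits in the embryo. Position groups used below are anterior (numbers 1 to 3, 6 genes), central (4 to 8, 11 genes) and posterior (9 to 13, 12 genes).

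The values are the authors' log2 values, centred per probe, so 0 is a reference level of each probe and not absence of RNA. Whether a gene was detected cannot be read from them, and no level is compared between genes. A gene's value is the mean of its probes. A line difference is LK2 minus H520, and a positive value is higher in LK2. In bulk RNA, fewer cells expressing a gene and less RNA per cell cannot be told apart.

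RefSeq upstream windows (250 bases before the start of transcription, assembly GRCh38.p14) were matched by symbol for 12 of the 29 genes. Shown here are those of genes whose line difference passed the test below. HOXC4 and HOXC5 have 1 window in common (chr12:54016638-54016887, + strand), and RefSeq places the first base of the HOXC6 gene at the same site. The windows of HOXD1 (chr2:176188418-176188667, + strand) and HOXD4 (chr2:176151300-176151549, + strand) follow. Capitals mark ATTGT or its reverse ACAAT, the core letters of SOX sites.
HOXC4 and HOXC5: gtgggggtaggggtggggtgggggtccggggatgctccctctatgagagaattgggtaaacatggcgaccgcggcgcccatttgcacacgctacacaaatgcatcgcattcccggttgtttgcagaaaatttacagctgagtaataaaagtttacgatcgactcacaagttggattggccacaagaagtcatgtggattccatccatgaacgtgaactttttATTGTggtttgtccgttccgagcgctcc
HOXD1: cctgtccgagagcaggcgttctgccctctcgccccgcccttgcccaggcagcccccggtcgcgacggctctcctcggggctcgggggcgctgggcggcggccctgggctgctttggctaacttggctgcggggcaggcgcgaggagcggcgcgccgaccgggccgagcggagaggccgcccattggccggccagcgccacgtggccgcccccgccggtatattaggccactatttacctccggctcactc
HOXD4: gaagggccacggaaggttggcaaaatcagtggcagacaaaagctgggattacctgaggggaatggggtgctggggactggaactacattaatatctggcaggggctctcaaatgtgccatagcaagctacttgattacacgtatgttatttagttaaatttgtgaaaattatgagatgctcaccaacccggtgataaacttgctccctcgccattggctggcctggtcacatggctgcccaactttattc

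The window shared by HOXC4 and HOXC5 holds ATTGT once, starting 28 bases before the transcription start, and those of HOXD1 and HOXD4 do not hold it on either strand. Of the 34941 distinct windows of this length in the table, 24.7% hold it, as do 3 of the 11 distinct HOX windows. TGATNNAT, letters of joint HOX and PBX sites, was in 3 of the 11 (6.49% of all windows), and TTTATG, letters of CDX sites, in 1 (9.66%). Both were also read as their reverse, ATNNATCA and CATAAA, no match overlapped that of another motif, and no window printed above holds either. The 11 distinct HOX windows, most of them of HOXD genes, had a median of 21 CpG pairs against 11 over all windows. Those of HOXA2 and HOXB1 had 8 and 7. The GC content of the HOX windows was near that of all windows (median 59.2% against 58%). The shared HOXC4 and HOXC5 window had 14 CpG pairs and 50.8% GC, that of HOXD1 31 and 74.8%, and that of HOXD4 4 and 47.6%.

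Between the lines, HOXC4, HOXC5, HOXC6 and HOXC8 were higher in LK2, joined by HOXC11 and HOXB7, and HOXC13, HOXC10, HOXD1 and HOXD4 were higher in H520. Over both pairs of arrays, 10 of the 29 HOX genes passed the limma test of the line difference at an adjusted p under 0.05, 6 higher in LK2 and 4 higher in H520. This was 34.5% of the HOX genes, against 27.4% of all 18852 genes, so the HOX genes as a whole were near the background. Of all genes, 14% were called higher in LK2 and 13.4% higher in H520. The median absolute line difference was 0.18 for the HOX genes and 0.18 for all genes. By cluster, 7 of 9 HOXC genes, 2 of 9 HOXD genes, 1 of 10 HOXB genes and 0 of 1 HOXA genes were called. Whether the clusters differ in this count was not tested.

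**Figure D1:**
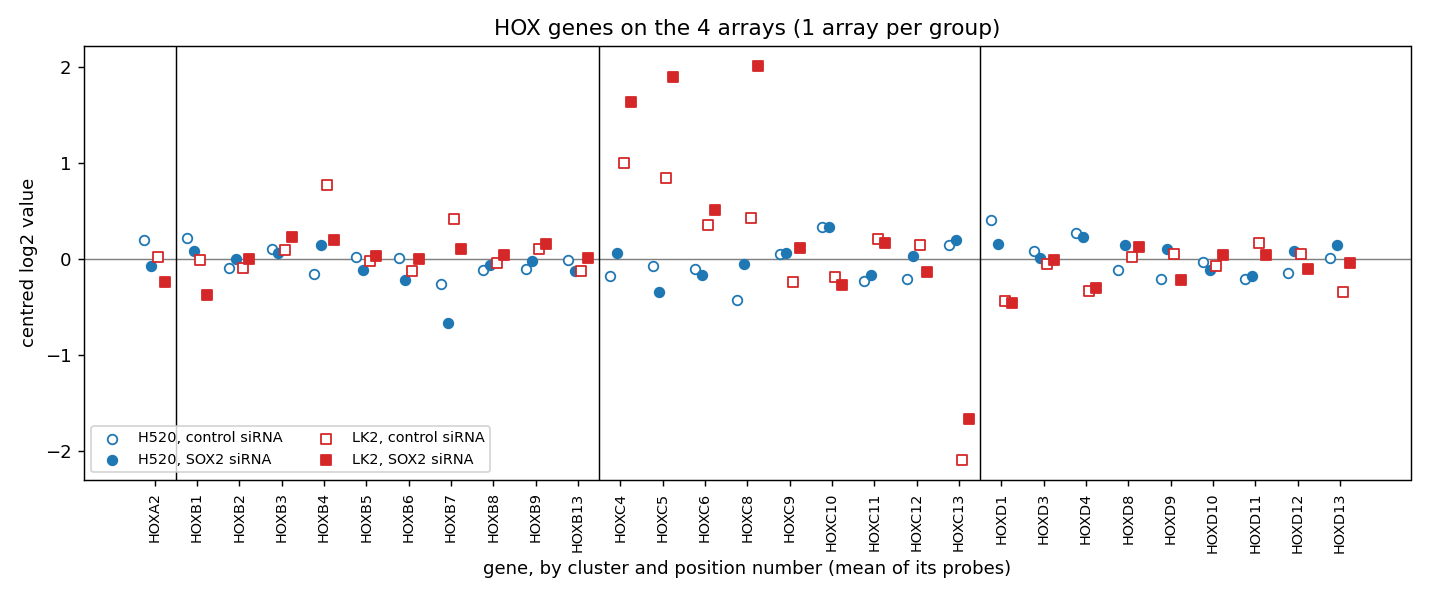
Centred log2 value (y axis) of each of the 29 HOX genes (x axis, by cluster and position number) on the 4 arrays; open symbols are control siRNA, filled symbols SOX2 siRNA, circles H520 and squares LK2, 1 array each, with no error bars. HOXC4, HOXC5 and HOXC8 lie highest on the LK2 SOX2 siRNA array, at 1.63, 1.89 and 2.01, and HOXC13 lies at -2.09 and -1.66 on the LK2 arrays.

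HOXC13, which controls keratin genes of hair and nail, had the largest line difference among the HOX genes on control arrays and in the fit of probe means. On SOX2 siRNA arrays HOXC5 (2.23) and HOXC8 (2.06) differed more than HOXC13 (-1.86), and with 1 probe per gene HOXC4 (2.66) and HOXC6 (2.17) did. The HOXC13 value was 0.14 on the H520 control array, 0.20 with SOX2 siRNA in H520, -2.09 on the LK2 control array and -1.66 with SOX2 siRNA in LK2. Both H520 values lay well above both LK2 values. On the control arrays H520 was 4.70-fold higher, and on the SOX2 siRNA arrays 3.63-fold. The fitted line difference was -2.05 ± 0.12 (SE; limma adjusted p = 0.000167).

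HOXC8, which patterns the thoracic skeleton in the mouse, was at -0.43 in H520 control, -0.05 in H520 with SOX2 siRNA, 0.43 in LK2 control and 2.01 in LK2 with SOX2 siRNA. The LK2 values were the higher ones, and the gap was wider on the SOX2 siRNA arrays. LK2 was 1.82-fold higher on control arrays and 4.17-fold higher on SOX2 siRNA arrays. The fitted line difference was 1.46 ± 0.26 (SE; limma adjusted p = 0.00809).

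HOXC5 was at -0.07 in H520 control, -0.34 in H520 with SOX2 siRNA, 0.84 in LK2 control and 1.89 in LK2 with SOX2 siRNA. The lines did not overlap, and the gap was again wider with SOX2 siRNA, at 2.23 against 0.91 on control arrays. The fitted line difference was 1.57 ± 0.28 (SE; limma adjusted p = 0.00847). The calls of HOXC5 and HOXC8 depended on how the variance was modelled: with robust moderation the adjusted p was 0.0647 for HOXC5 and 0.0542 for HOXC8. Without siRNA as a block HOXC8 also missed the threshold (adjusted p = 0.0957).

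HOXC4, 1 of the genes at the 3′ end of the cluster, was at -0.18, 0.06, 1.0 and 1.63 on the H520 control, H520 SOX2 siRNA, LK2 control and LK2 SOX2 siRNA arrays. Its fitted line difference was 1.37 ± 0.13 (SE; limma adjusted p = 0.000712). HOXC6, whose transcripts share exons with its neighbours, was at -0.10, -0.17, 0.35 and 0.51 in the same order. Both genes were higher in LK2 on either pair of arrays. The fitted line difference of HOXC6 was 0.57 ± 0.11 (SE; limma adjusted p = 0.011).

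The values of HOXC4 and HOXC6 each rest on 1 probe. For HOXC4, probe ILMN_1719975 gave line differences of 2.13 on control and 3.19 on SOX2 siRNA arrays, and probe ILMN_1757184 gave 0.22 and -0.06. Both are annotated to the same RefSeq transcript. For HOXC6, probe ILMN_1794492 gave 1.75 and 2.58, while the other 3 probes lay between -0.34 and 0.34 on control arrays. Tested on their own by limma, ILMN_1719975 (adjusted p = 5.85e-05) and ILMN_1794492 (adjusted p = 7.11e-05) passed, and the remaining 4 probes of these genes did not. HOXC4, HOXC5 and HOXC6 transcripts overlap, so a probe signal may come from a transcript of a neighbour, which was not tested. HOXC5 and HOXC8 had 1 probe each.

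**Figure D2:**
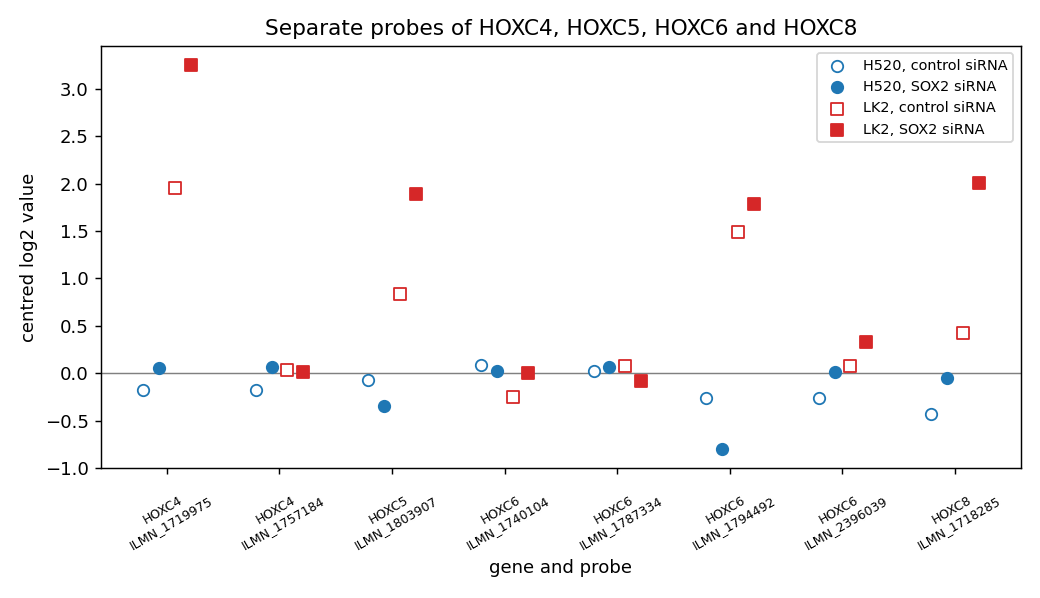
Centred log2 value (y axis) of each probe of HOXC4, HOXC5, HOXC6 and HOXC8 (x axis) on the 4 arrays; circles are H520, squares LK2, open control siRNA and filled SOX2 siRNA. Of the 2 HOXC4 probes, ILMN_1719975 reads 1.95 and 3.25 in LK2 while ILMN_1757184 reads 0.04 and 0.01, and of the 4 HOXC6 probes ILMN_1794492 reads 1.49 and 1.79.

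In chromosome order HOXC8, HOXC6, HOXC5 and HOXC4 are neighbours, so 4 of the 5 HOXC genes called higher in LK2 were adjacent at 1 end of the cluster, HOXC11 lay apart from them, and HOXC13 lay at the other end. Across the 9 HOXC genes the position number and the line difference had a Spearman rho of -0.85 on control arrays and -0.83 on SOX2 siRNA arrays. This describes 9 genes of 1 cluster on shared arrays, some with overlapping transcripts. In HOXB (10 genes) rho was 0.22 and 0.53, and in HOXD (9 genes) 0.50 and 0.37, so a fall with position number was seen in HOXC alone of these 3 clusters. Differences in rho between clusters were not tested.

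The rest of the HOXC cluster was mixed. HOXC10, a gene of lumbar and hindlimb identity in the mouse, was at 0.33 on both H520 arrays and at -0.19 and -0.27 on the LK2 control and SOX2 siRNA arrays. Its line difference was -0.56 ± 0.10 (SE; limma adjusted p = 0.00856). HOXC11, its neighbour, went the other way, at -0.23 and -0.17 in H520 and 0.21 and 0.17 in LK2 (0.39 ± 0.10, SE; limma adjusted p = 0.0349). HOXC9 and HOXC12 did not pass: their differences changed sign between control and SOX2 siRNA arrays, from -0.29 to 0.05 and from 0.35 to -0.17.

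**Figure D3:**
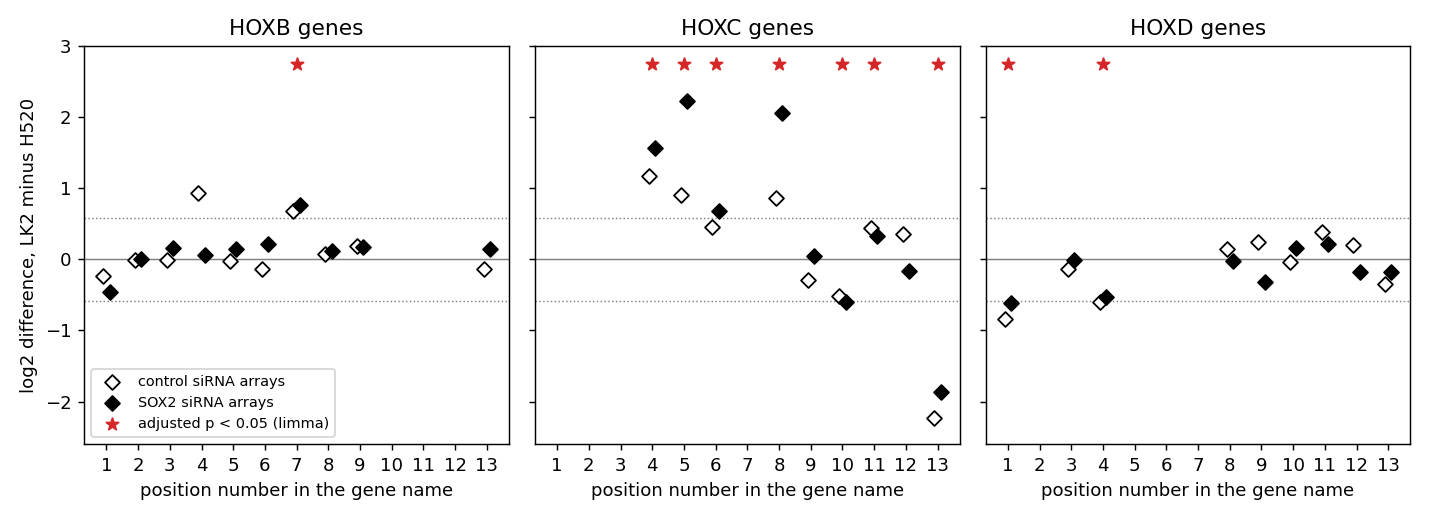
Log2 difference LK2 minus H520 (y axis) against position number (x axis) for the HOXB, HOXC and HOXD genes; open diamonds are control siRNA arrays, filled diamonds SOX2 siRNA arrays, dotted lines 1.5-fold, and stars genes with a limma adjusted p under 0.05. HOXC runs from 1.17 and 1.57 at HOXC4 to -2.23 and -1.86 at HOXC13, while most HOXB and HOXD genes lie within 1.5-fold.

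Of the HOXB genes, HOXB7 alone passed the limma test. HOXB7, found at raised levels in several cancers, was at -0.26 in H520 control, -0.67 in H520 with SOX2 siRNA, 0.42 in LK2 control and 0.10 in LK2 with SOX2 siRNA. LK2 was higher on either pair, by 1.60-fold and 1.71-fold (0.73 ± 0.10 in the fit, SE; limma adjusted p = 0.00323). HOXB4, which expands blood stem cells when overexpressed, had the largest HOXB line difference on control arrays, 0.93, but 0.06 on SOX2 siRNA arrays. It was at -0.16 and 0.14 in H520 and at 0.77 and 0.20 in LK2, and did not pass (limma adjusted p = 0.13). The other HOXB genes, HOXB1 to HOXB3, HOXB5, HOXB6, HOXB8, HOXB9 and the prostate gene HOXB13, lay between -0.23 and 0.19 on control arrays and none passed.

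Of the HOXD genes, HOXD1 and HOXD4 were higher in H520. HOXD1 was at 0.40 and 0.16 on the H520 control and SOX2 siRNA arrays and at -0.44 and -0.46 in LK2 (-0.73 ± 0.11, SE; limma adjusted p = 0.00434). HOXD4, which patterns the hindbrain and neck vertebrae in the mouse, was at 0.27 and 0.23 in H520 and -0.33 and -0.30 in LK2 (-0.57 ± 0.10, SE; limma adjusted p = 0.00803). Neither gene overlapped between the lines. HOXD3 and the HOXD genes from HOXD8 to HOXD13 did not pass, HOXD13, a gene of the digits, included (-0.35 on control arrays). HOXA2, which gives the second pharyngeal arch its identity, was at 0.20 and -0.07 in H520 and at 0.02 and -0.24 in LK2 (limma adjusted p = 0.275).

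By position, 6 of 11 central genes, 3 of 12 posterior genes and 1 of 6 anterior genes were called between the lines, beside 27.4% of all genes. Of the 6 central genes called, 4 were the neighbours HOXC4, HOXC5, HOXC6 and HOXC8. The rest were HOXB7 (0.73) and HOXD4 (-0.57), which went opposite ways. Median line differences on control arrays were 0.45 for central, 0.08 for posterior and -0.15 for anterior genes, against 0.01 for all genes. The central median includes the 4 HOXC genes, which lay between 0.45 and 1.17, so it does not describe central genes of the other clusters. All 6 anterior genes were lower in LK2 on control arrays, most by little, since their highest value was -0.01, and 4 of the 6 were lower on SOX2 siRNA arrays. On control arrays alone, with no test, 5 HOX genes were at least 1.5-fold higher in LK2 and 3 higher in H520, together 8 of 29. The shares over all genes were 9.06% and 8.57%, together 17.6%.

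The control and SOX2 siRNA arrays give the line difference on separate arrays. Over the 29 HOX genes their Pearson r was 0.83 and their Spearman rho 0.72, against 0.88 and 0.74 over all genes. The sign was the same for 18 of 29 HOX genes, and for 74.1% of all genes. The correlations are across genes, which share arrays and are not replicates. Line differences on control arrays, read by both probes of a gene, scattered with an SD of 0.416 over the 3934 genes with 2 probes. Of the 29 HOX genes, 24 had 1 probe, and the SEs of the line differences leave out this scatter.

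With SOX2 siRNA, 0 of the 29 HOX genes passed the limma test over both lines, where 0.00530% of all genes did (1 gene). At an unadjusted limma p under 0.05 there were 4 HOX genes, HOXC8, HOXB7, HOXC4 and HOXA2, or 13.8%, against 8.40% of all genes. The lowest adjusted p, 0.378, was that of HOXC8. The fit has 1 residual degree of freedom, and its error grows with the difference between the responses of the lines.

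In LK2, the 3 HOX genes with the largest SOX2 siRNA differences were among those called higher in LK2 than in H520. HOXC8 was higher by 1.57 (2.98-fold), HOXC5 by 1.05 (2.06-fold) and HOXC4 by 0.63 (1.55-fold), from 1 pair of arrays with no replicate check. These 3 of 29 HOX genes were at least 1.5-fold higher and 0 were lower, where 1.90% of all genes were higher and 1.30% lower. HOXC6, between HOXC8 and HOXC5 on the chromosome, was at 0.16, and at 0.29 by the probe that differed between the lines. By probe, HOXC4 was at 1.30 and -0.03. HOXB7 and HOXC11, also called higher in LK2 than in H520, were at -0.32 and -0.04 with SOX2 siRNA in LK2. The LK2 control array enters both this difference and the line difference, so the pairing of the 2 is not independent.

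In H520, 0 of the 29 HOX genes reached 1.5-fold with SOX2 siRNA in either direction, against 0.806% of all genes higher and 1.07% lower. HOXC8 was at 0.38, HOXC4 at 0.24 and HOXC5 at -0.27. Whether these genes respond differently in the lines could not be tested with 1 array per group, and SOX2 depletion was unequal. For scale, siRNA differences read by both probes of a gene scattered with an SD of 0.179 (H520) and 0.209 (LK2), taken over the 3934 genes that have 2 probes. This scatter is between probes on the same pair of arrays, so it leaves out variation between arrays or cultures.

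**Figure D4:**
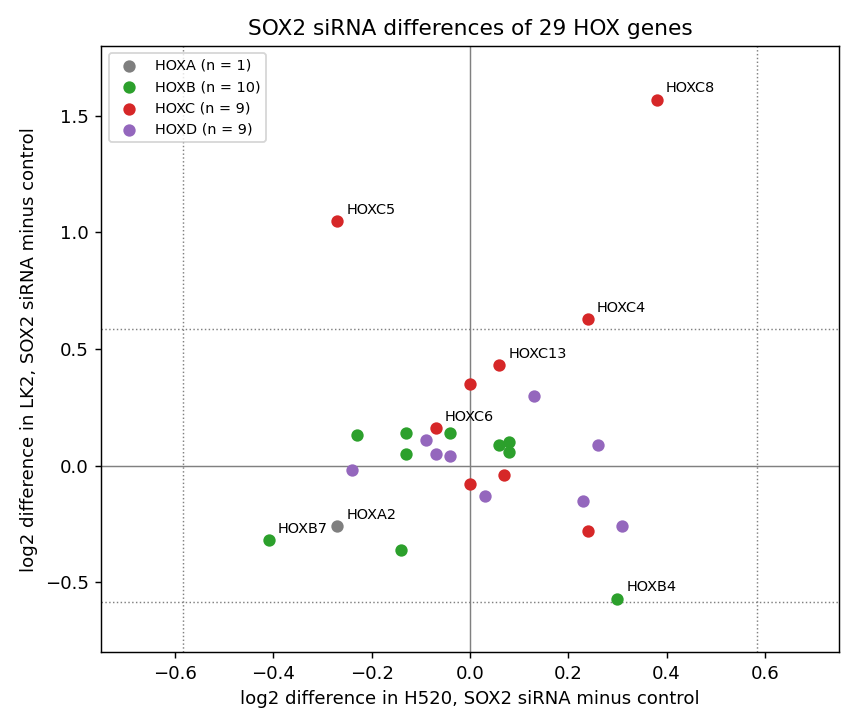
Log2 difference SOX2 siRNA minus control in H520 (x axis) and in LK2 (y axis) for the 29 HOX genes, coloured by cluster, with dotted lines at 1.5-fold; each point is 1 gene from 1 pair of arrays per line. HOXC8, HOXC5 and HOXC4 lie above the upper dotted line in LK2 (1.57, 1.05 and 0.63), and all 29 genes lie within 1.5-fold in H520.

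Lower values in both lines were found for HOXB7, at -0.41 in H520 and -0.32 in LK2 (-0.37 ± 0.10 in the fit, SE; limma adjusted p = 0.396). HOXA2 was at -0.27 and -0.26 (limma adjusted p = 0.56), and HOXB1, a hindbrain gene, at -0.14 and -0.36 (limma adjusted p = 0.626). HOXB4 went opposite ways, at 0.30 in H520 and -0.57 in LK2. HOXC13 was at 0.06 and 0.43. The remaining HOX genes lay between -0.24 and 0.31 in H520 and between -0.28 and 0.35 in LK2.

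The median SOX2 siRNA difference of the HOX genes was 0.00 in H520 and 0.06 in LK2, against 0.00 and 0.00 for all genes. The sign was the same in both lines for 13 of 29 HOX genes and for 54% of all genes. Between H520 and LK2 Pearson's r was 0.15 and Spearman's rho 0.03 over the 29 genes, against 0.23 and 0.15 over all genes. By cluster, the LK2 median was 0.35 for HOXC, 0.07 for HOXB and 0.04 for HOXD. Without HOXC4, HOXC5, HOXC6 and HOXC8, the other 25 HOX genes ran from -0.57 to 0.43 in LK2. The genes left out include the 3 at least 1.5-fold higher with SOX2 siRNA in LK2, so their removal narrows this range by construction.

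Partners and regulators of HOX genes were described from lists taken from general knowledge. Of the TALE cofactors, which bind DNA beside HOX proteins, 2 of 8 measured were called higher in LK2 and 0 higher in H520, which is 25%, beside 27.4% of all genes. MEIS1 was at -0.11 and 0.00 in H520 and 1.23 and 0.67 in LK2 (1.01 ± 0.17, SE; limma adjusted p = 0.00635). PBX3 was at -0.07 and -0.17 in H520 and 0.84 and 0.72 in LK2 (0.90 ± 0.10, SE; limma adjusted p = 0.00139). In LK2 the MEIS1 difference of SOX2 siRNA from control siRNA was -0.56, and 0 of the 8 passed the siRNA test.

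Of the retinoic acid and CDX genes, 7 of 16 measured were called higher in LK2 and 0 higher in H520, beside 14% and 13.4% of all genes. CDX2, an intestinal homeobox factor that activates central HOX genes in embryos, differed most, at -1.81 and -1.51 in H520 and 2.11 and 2.30 in LK2 (3.86 ± 0.10, SE; limma adjusted p = 1.8e-05). The retinaldehyde dehydrogenase ALDH1A3 had a line difference of 2.61, the retinoic acid receptor gene RARB 1.51 and CYP26B1, which breaks retinoic acid down, 1.60. CYP26B1 was at -0.26 and -0.34 in H520 and at 0.61 and 1.98 in LK2, so in LK2 it was 1.38 higher with SOX2 siRNA. CRABP2, which carries retinoic acid in the cell, was higher with SOX2 siRNA by 1.02 in H520 and 1.03 in LK2 but did not pass the test (limma adjusted p = 0.0752, the lowest of the list). By limma 0 of the 16 passed the siRNA test, with 3 at an unadjusted p under 0.05, beside 8.40% of all genes. The list median of the line difference was 0.09, against 0.01 for all genes.

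Polycomb and MLL genes were called in both directions, 11 of 22 and 7 of 14, beside 27.4% of all genes. Of 22 Polycomb subunits, 7 were higher in LK2, JARID2 (1.17) and PHC1 (0.99) with the largest differences, and 4 higher in H520, led by CBX6 (-1.22) and PHF19 (-0.95). EZH2, the methyltransferase of the complex, was among those higher in LK2 (0.54). Of 14 MLL and UTX complex genes, 4 were higher in LK2, such as the demethylase gene KDM6B (0.58), and 3 higher in H520, PAXIP1 (-1.39), ASH2L (-0.77) and KMT2B (-0.63). In the siRNA test 0 of the 22 and 0 of the 14 passed by limma, with 3 and 1 at an unadjusted p under 0.05 (8.40% of all genes).

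Genes flanking the clusters were compared to see whether line differences ran past the HOX genes. Of 20 measured, 6 were called higher in LK2 and 2 higher in H520, together 8, beside 27.4% of all genes. Beside HOXC, CALCOCO1 (0.80 ± 0.11, SE; limma adjusted p = 0.00265) and SMUG1 (0.45 ± 0.10, SE; limma adjusted p = 0.0193) were higher in LK2, while CBX5 (-0.10, adjusted p = 0.661), HNRNPA1 (0.10, adjusted p = 0.621) and ATP5MC2 (0.02, adjusted p = 0.906) did not pass. Which end of the HOXC cluster each of these genes lies at was not taken into account. Near HOXA, HIBADH (1.39), EVX1 (0.52) and SNX10 (0.47) were higher in LK2, while SKAP2 did not pass (0.15, limma adjusted p = 0.371). Near HOXB, SNX11 was higher in LK2 (0.34, limma adjusted p = 0.0496), and the other listed genes did not pass. Near HOXD, ATP5MC3 (-1.23) and HNRNPA3 (-0.89) were higher in H520. The other listed flanking genes of HOXD did not pass: LNPK (-0.30, limma adjusted p = 0.0882), EVX2 (0.04, limma adjusted p = 0.83) and MTX2 (0.03, limma adjusted p = 0.858). In LK2, the log2 differences of SOX2 siRNA from control siRNA beside HOXC were 0.09 for CALCOCO1, -0.15 for SMUG1, -0.46 for HNRNPA1, -0.44 for CBX5 and -0.11 for ATP5MC2. Near HOXB, the same difference was -1.03 for CBX1 and 0.53 for CALCOCO2, the lowest and the highest of the 20. By limma 0 of the 20 passed the siRNA test, with 2 at an unadjusted p under 0.05, beside the same 8.40%.

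Cell type markers could be compared between the lines, beside 27.4% of all genes called, but their presence could not be read from centred values. Of 7 squamous markers measured, DSC3 (1.12), SERPINB5 (1.07) and DSG3 (0.68) were called higher in LK2 and TRIM29 (-0.97) higher in H520. TP63 and KRT6A were not analysed here. Of 5 neuroendocrine markers, INSM1 (0.84) was higher in LK2 and CHGB (-2.13) higher in H520, and of 6 mesenchymal markers VIM (-1.12) was higher in H520. Airway and immune markers, 6 each, had 0 calls in the line difference by limma. The part of these markers in the HOX differences was not tested.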

How the data were processed

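The deposited values are the authors' processed log2 values for 48801 probes, 1 column per array. How they were normalized is not given in the sources used here. Each column has the mean 0.00475, and medians run from -0.000497 to 0.00118, so values were taken as centred per probe, over a set of arrays that is unknown. Another 4 columns of linear scanner values matched no sample label and were used only to check the log base. Differences between pairs of columns matched with slopes of 0.889 and 0.945, where log2 gives 1 and natural log 0.693.

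Of the probes, 28096 had 1 gene symbol in the platform annotation, 13 had several and 20692 were not listed. Of the named probes, 28057 matched RefSeq (GRCh38.p14) by Entrez identifier, and 0 symbols changed. Genes are means of their probes; 6131 genes had more than 1.

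Limma 3.58.1 in R 4.3.3 was fitted to all 18852 genes with cell line and siRNA as terms (1 residual and 5.19 prior degrees of freedom), two-sided, with Benjamini-Hochberg adjustment over all genes at 0.05. The pairing by line and by siRNA comes from the labels. The labels name no separate cultures, and each combination of line and siRNA has 1 array. The residual is therefore how far the line difference changed between control and SOX2 siRNA arrays, moderated toward the variance of all genes. P-values and SEs rest on this residual and do not measure the spread between replicate cultures. Differences within a line or between control arrays have no test and were counted at 1.5-fold. The fit was run on simulated data with additive effects, independent noise and no response that differed between the lines. This checks the code and not the design with 1 array per group.

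Values were given on all arrays for HOX genes called in either contrast, at 1.5-fold in either line with SOX2 siRNA, or with the largest control line difference of their cluster. Probes are given where they differed by more than 1. In other lists, up to 4 called genes were named by the size of the line difference. EZH2, CRABP2, SMUG1, EVX1, SNX10, SNX11 and the uncalled flanking genes were named after values were seen. The members and lists were chosen with earlier results of these data known. The number of arrays limits the precision.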

Additional observations from a re-analysis of the deposited data

Results flagged for a closer look

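With 1 array per group, genes named above were singled out where the SOX2 siRNA difference had opposite signs in the lines and reached 1.5-fold in at least 1 of them. HOXC5 was at -0.27 in H520 and 1.05 in LK2. CYP26B1 was at -0.08 and 1.38. VIM was at -0.70 and 0.02. The difference between the lines was not tested for any of them, and the smaller value of CYP26B1 and of VIM is near 0.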

How the results depend on the processing

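The count of 10 HOX genes called between the lines was 8 with robust moderation, 9 with no replicate block for siRNA, 12 at an adjusted p under 0.1, and 10 with separate probes, 1 probe per gene or arrays set to their median. With SOX2 siRNA the HOX count was 0 in all 6 alternatives run, the fit without a block for cell line included. In the other lists 1 gene was called with SOX2 siRNA by separate probes, by 1 probe per gene, with a variance trend and at an adjusted p under 0.1, against 0 in the main setting. At 2-fold, 2 HOX genes differed between control arrays in place of 8. The share of all genes at these alternative settings was not counted, so whether the HOX counts moved with it cannot be told. Of 65 alternative values of the line difference for 12 HOX genes, 58 kept sign and side of the threshold, 5 lost the call and 2 changed sign. The calls lost were HOXC5 (robust), HOXC8 (robust and no block), ILMN_1757184 of HOXC4 (0.08) and ILMN_2396039 of HOXC6 (0.33). Sign changed for HOXC6 by ILMN_1740104 (-0.18) and ILMN_1787334 (-0.05). In the siRNA contrast, 62 of 65 values kept sign and side, and HOXC6 went from 0.04 to -0.06 by ILMN_1787334 and to -0.12 by ILMN_1794492, also the value with 1 probe per gene. The cause was not tested. Background correction, quantile normalization and a filter on detection p-values were not run, since the scanner columns match no sample.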
